A study of Homo sapiens with 6 samples.

Results

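The Rab GTPases are the largest branch of the small Ras-like GTPases, and 64 of the 61860 genes in the deposited table belong to it by name (RAB, a number and at most 1 letter). They were read in SH-SY5Y, an established human neuroblastoma line, so all libraries share 1 tumour-derived genotype and no primary neuron was sampled. All cells had been differentiated with retinoic acid and then held in 100 nM insulin with 30 mM D-glucose for 24 h, which makes them insulin resistant (IR). In the IR+Oligonol group (3 libraries) Oligonol, a polyphenol preparation from lychee fruit, was given at 500 ng/mL for 24 h, and the IR control group (3 libraries) had none. The comparison asks how Oligonol altered gene expression in insulin-resistant neuron-like cells. The sources used here do not say whether libraries of 1 group were grown as independent cultures. Each p-value therefore measures only the spread between these libraries, which may be technical.

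A Rab protein is a switch: bound to GTP it sits on a membrane and recruits effectors that bud, move, tether or fuse vesicles, and bound to GDP it is drawn off the membrane. Exchange factors load GTP, GTPase-activating proteins speed its hydrolysis, and a prenyl anchor together with GDP dissociation inhibitors moves the protein between membrane and cytosol. Each membrane has its own set, which in neurons runs from the endoplasmic reticulum and Golgi to synaptic vesicles and recycling endosomes, and in insulin-responsive cells includes the members that carry glucose transporters to the surface. The 64 genes were placed by textbook role into secretory (12), endosomal (20), Golgi and ER (20) and other (12) members.

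The family holds close paralogues whose proteins are built alike while their genes use different synonymous codons. In the stretches below the first 2 bases of a codon are mostly the same and the third base often differs, so their GC content parts mainly there. Transcript GC, used further on, also counts sequence outside the coding region. It was 41.2% in RAB1A and 60.6% in RAB1B, where the coding sequences had 42.1 and 56.2%. The GC content of a transcript matters for the values that follow. Each run is a stretch of 24 codons from 1 exon, read 5′ to 3′ on the coding strand from GENCODE release 29 on GRCh38, with G or C at the third base of a codon in capitals.
RAB1A (chr2:65090983-65091054, minus strand): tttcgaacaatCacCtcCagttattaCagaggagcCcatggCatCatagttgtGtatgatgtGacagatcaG
RAB1B (chr11:66272389-66272460, plus strand): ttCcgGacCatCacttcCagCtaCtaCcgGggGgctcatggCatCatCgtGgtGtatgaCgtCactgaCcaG
RAB11A (chr15:65877334-65877405, plus strand): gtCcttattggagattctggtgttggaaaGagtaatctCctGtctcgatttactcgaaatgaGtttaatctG
RAB11B (chr19:8399865-8399936, plus strand): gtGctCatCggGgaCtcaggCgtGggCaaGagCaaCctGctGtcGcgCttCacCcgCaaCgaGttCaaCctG
RAB5A (chr3:19950941-19951012, plus strand): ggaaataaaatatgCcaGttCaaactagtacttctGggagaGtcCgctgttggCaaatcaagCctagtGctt
RAB5C (chr17:42130386-42130457, minus strand): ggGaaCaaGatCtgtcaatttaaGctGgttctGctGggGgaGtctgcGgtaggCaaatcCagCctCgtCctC
RAB6A (chr11:73716265-73716336, minus strand): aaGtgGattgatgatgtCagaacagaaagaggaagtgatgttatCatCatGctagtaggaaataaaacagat
RAB6B (chr3:133839520-133839591, minus strand): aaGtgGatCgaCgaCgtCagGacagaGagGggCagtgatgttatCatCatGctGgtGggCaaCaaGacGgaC

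In these stretches 10 codons of RAB1A and 19 of RAB1B ended in G or C. The counts were 6 and 23 in RAB11A and RAB11B, 9 and 17 in RAB5A and RAB5C, and 6 and 20 in RAB6A and RAB6B. Some pairs not printed hardly parted in their stretches, with 22 and 21 in RAB8A and RAB8B, 20 and 21 in RAB33A and RAB33B, and 23 and 24 in RAB40B and RAB40C. Over the whole aligned coding sequences, 191 of 216 codons of RAB11A and RAB11B shared their first 2 bases and 128 differed in the third base alone. For RAB1A and RAB1B these numbers were 178 of 201 codons and 104.

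Estimated counts summed to 19457923 to 20912945 in IR+Oligonol and to 22738203 to 32209583 in IR control libraries, and protein-coding genes held 10.0 to 12.3% of them against 6.24 to 6.83%. The rest lay in genes of other types or without an annotation match, which makes the scaling between libraries matter. Estimated counts behave as abundances per transcript length, so these percentages are not shares of reads. The median GC content behind a protein-coding count was 51.2, 54.1 and 51.6% in IR+Oligonol libraries 1, 2 and 3, against 56.0 to 56.3% in IR control libraries, so the groups differed in base composition as a whole. The noradrenergic neuroblast markers that define the line were present, with summed levels of 167 to 227 against 260 to 313 CPM (estimated counts scaled to a common library size). Of 11 tested markers 3 were lower and none higher, where 23.0% of all tested genes were lower and 26.0% higher (edgeR, adjusted p under 0.05). The 3 markers, CHGA, GATA2 and TBX2, have a transcript GC content of 62.5, 64.8 and 66.0%. TH, the first enzyme of catecholamine synthesis, was near 0 at 0.0267 to 0.036 against 0.0643 to 0.116 CPM. Mesenchymal markers summed to 5.99 to 7.33 against 10.1 to 10.8 CPM, and of 4 tested CD44 was higher (log2 fold change 1.32) and TAGLN lower (-1.34, edgeR). Glial markers summed markers to 1.52 to 1.95 against 1.11 to 1.66 CPM and myeloid markers to 0.803 to 1.38 against 0.594 to 1.55 CPM. Their part in the results below was not tested. In bulk RNA, fewer cells of a kind and less RNA per cell cannot be told apart.

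Of the 64 members, 46 passed the filter on low values and entered edgeR's quasi-likelihood fit of 16574 genes. Levels are in CPM after TMM scaling. With Oligonol 12 members (26.1%) rose and 11 (23.9%) fell at an adjusted p under 0.05, while 26.0% of all tested genes rose and 23.0% fell. The share of Rab genes called in each direction was thus near the background of this comparison. The median log2 fold change was 0.30 over the tested members and 0.15 over all tested genes. The direction of these calls depends on the scaling: by library totals alone the median of all tested genes moves to 1.53, 34 Rab members were higher and 0 lower (adjusted p under 0.05, edgeR; 36 members at an unadjusted p under 0.05), and 10 of the 11 members called lower had fold changes above 0. Over all genes the fit by library totals called 11293 of 16574 higher and 37 lower, so most genes moved with the family. Members are therefore described as TMM scaling places them, against the bulk of tested genes.

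The number of calls depended on single libraries, over all genes as in the family. Leaving out IR control library 3 left 1 member higher (RAB8B) and 0 lower, although 25 members had an unadjusted p under 0.05 in edgeR and DESeq2 on all libraries called 9 higher and 12 lower. Over all genes the fit without IR control library 3 called 782 of 20071 (582 higher and 200 lower), against 8112 of 16574 with all libraries. DESeq2 called 3144 of all genes higher and 3999 lower. Without IR control library 2 the counts were 6 and 1, without IR control library 1 they were 8 and 9, and without IR+Oligonol libraries 1, 2 and 3 they were 6 and 1, 8 and 13, and 5 and 1. Calls over all genes swung likewise. In the same order they were 1734 higher and 777 lower of 20048, 3095 and 3016 of 19920, 1623 and 721 of 17134, 4576 and 4916 of 20431, and 1345 and 490 of 17188. All 23 called members kept their sign in each of the 6 fits. The call of RAB8B held in all 6, and those of RAB14, RAB21, RAB2A, RAB3C and RAB40C in 5, all being lost without IR control library 3 at adjusted p-values of 0.0503, 0.0503, 0.051, 0.0561 and 0.0508 (edgeR). Their log2 fold changes in that fit were 1.31, 1.11, 1.01, 1.45 and -1.29, against 1.29, 1.26, 1.07, 1.44 and -1.28 with all libraries. Another 15 calls held in 1 or 2 of the fits, and those of RAB12 and RAB18 in none.

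**Figure D1:**
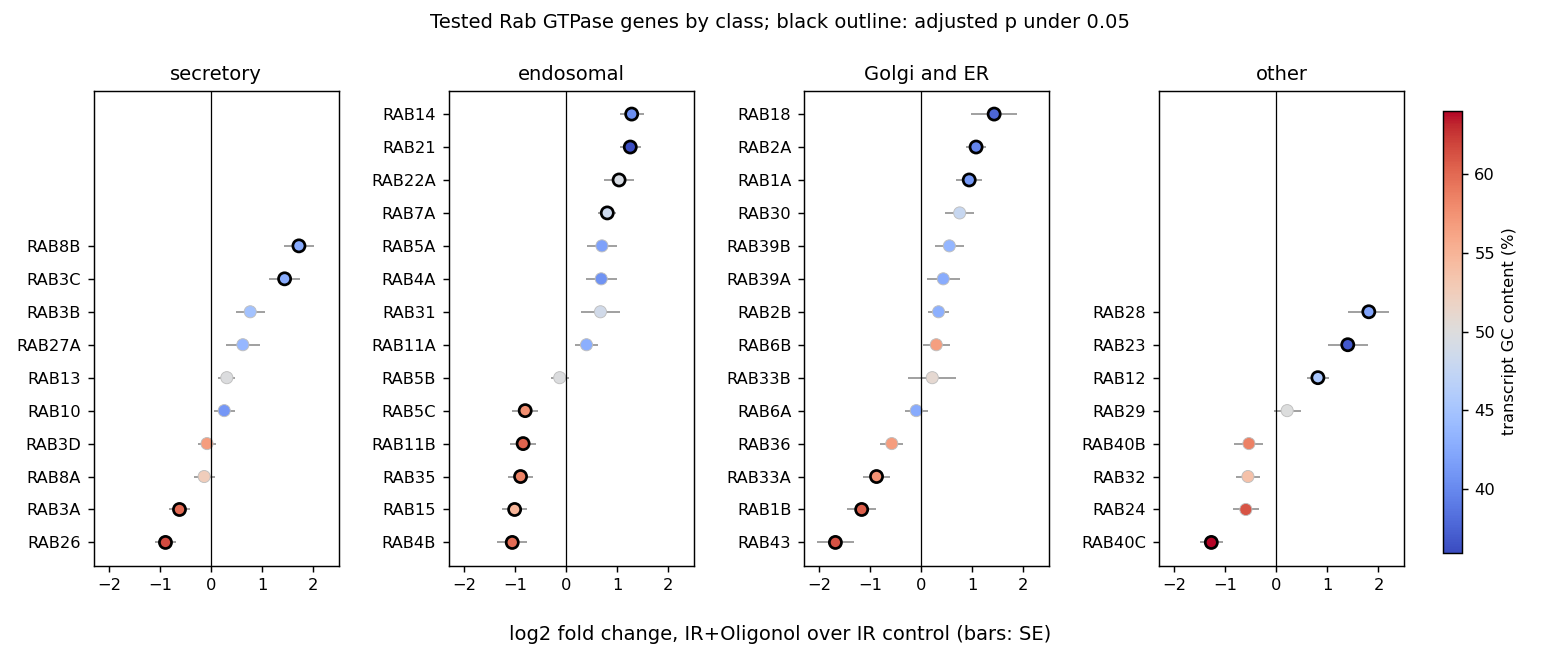
Log2 fold change of IR+Oligonol over IR control for the 46 tested Rab genes in 4 classes, as points with standard errors, coloured by transcript GC content; a black outline marks an adjusted p under 0.05 (edgeR). Each class holds genes that rose and genes that fell on TMM scaling, with low-GC genes (blue) to the right and high-GC genes (red) to the left; by library totals alone all but RAB43 among those called lower lie above 0.

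Transport between the endoplasmic reticulum and the Golgi, and within the Golgi, showed 3 members higher, 3 lower and 8 not called among 14 tested (median log2 fold change 0.32). That was 21.4% in each direction, where 26.0% of all tested genes rose and 23.0% fell. RAB1B, which with RAB1A drives vesicles from the endoplasmic reticulum to the Golgi, was the most abundant Rab gene in controls. It had 7.34, 14.3 and 8.26 CPM in IR+Oligonol libraries, against 19.8, 24.5 and 22.8 CPM in IR control libraries. The groups did not overlap, IR+Oligonol library 2 lay nearest to the controls, and RAB1B fell by 1.17 on the log2 scale (SE 0.29, adjusted p = 0.0145). RAB1A moved the other way, with 4.03, 3.52 and 3.49 CPM against 1.57, 2.69 and 1.51 CPM. All IR+Oligonol libraries lay above all controls, and RAB1A rose by 0.94 (SE 0.25, adjusted p = 0.0185).

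RAB2A, which acts between the endoplasmic reticulum and the Golgi, had 5.49, 4.55 and 5.99 CPM in IR+Oligonol libraries, against 2.15, 2.87 and 2.65 CPM in IR control libraries. It rose by 1.07 (SE 0.19, adjusted p = 0.00811) with no overlap. RAB18, found on the endoplasmic reticulum and lipid droplets, rose by 1.43 (SE 0.45, adjusted p = 0.0371), and 1 library carried much of that, with 9.96 CPM in IR+Oligonol library 1 beside 3.96 and 4.26 CPM, against 1.49 to 2.72 CPM in controls. RAB43, a Golgi member, had the largest fall of the family. It had 0.412, 0.85 and 0.437 CPM in IR+Oligonol libraries, against 2.05, 2.10 and 1.26 CPM in IR control libraries (log2 fold change -1.68, SE 0.36, adjusted p = 0.0108). RAB33A, tied to Golgi and autophagy transport, fell by 0.88 (SE 0.26, adjusted p = 0.0261).

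RAB6A, the main Golgi Rab of retrograde transport, was not called, with 4.50, 2.94 and 3.52 CPM against 4.86, 3.40 and 3.48 CPM, overlapping groups and a log2 fold change of -0.10 (SE 0.23, adjusted p = 0.742). Its neuron-enriched paralogue RAB6B had 0.986, 0.902 and 0.875 CPM against 0.827, 0.574 and 0.802 CPM (log2 fold change 0.29, SE 0.26, adjusted p = 0.374). RAB39B, mutated in X-linked intellectual disability with early parkinsonism, had 1.04, 0.75 and 0.805 CPM in IR+Oligonol libraries and 0.668, 0.632 and 0.497 CPM in IR control libraries. These groups did not overlap, but the log2 fold change of 0.55 (SE 0.29) did not pass the test (adjusted p = 0.142). RAB2B, RAB30, RAB33B, RAB36 and RAB39A, the other tested members of the class, had log2 fold changes of -0.58 to 0.75 with none called.

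Endosomal members gave 4 higher, 5 lower and 5 not called among 14 tested, with a median log2 fold change of 0.54. The shares were 28.6% higher and 35.7% lower, against 26.0% and 23.0% of all tested genes. RAB7A, which governs traffic from late endosomes to lysosomes, had 7.58, 6.87 and 8.72 CPM in IR+Oligonol libraries, against 4.09, 4.73 and 4.45 CPM in IR control libraries. It rose by 0.81 (SE 0.17, adjusted p = 0.0108) with the groups well apart. RAB21, linked to integrin endocytosis, had 3.51, 2.68 and 2.97 CPM against 1.49, 1.15 and 1.17 CPM and rose by 1.26 (SE 0.20, adjusted p = 0.00718). RAB14, a Rab of early endosomes and the trans-Golgi that also acts on glucose transporter vesicles in mouse adipocytes, had 2.03, 1.90 and 2.01 CPM against 0.593, 0.913 and 0.943 CPM. In neither gene did the groups overlap, and RAB14 rose by 1.29 (SE 0.23, adjusted p = 0.00817). RAB22A, of early endosomes, rose by 1.04 (SE 0.29, adjusted p = 0.0209), and its relative RAB31 was not called (log2 fold change 0.67, SE 0.39, adjusted p = 0.18).

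Of the RAB5 genes, which define the early endosome, RAB5C fell and RAB5A and RAB5B were not called. RAB5C was the most abundant Rab gene with Oligonol, at 8.63, 13.8 and 10.5 CPM, against 14.6, 21.3 and 21.4 CPM in IR control libraries, where RAB1B ranked above it. It fell by 0.80 (SE 0.26, adjusted p = 0.0339), although IR+Oligonol library 2 lay just under IR control library 1. RAB5A had 3.10, 2.18 and 2.37 CPM against 1.96, 1.83 and 0.942 CPM, without overlap, and its log2 fold change of 0.70 (SE 0.29) did not pass the test (adjusted p = 0.0794). RAB5B had 5.35, 5.46 and 5.56 CPM against 5.16, 5.54 and 7.06 CPM, with overlapping groups and a log2 fold change of -0.13 (SE 0.18, adjusted p = 0.58). Of the 3 genes' summed level, RAB5C held 57.3% ± 6.96 in IR+Oligonol and 71.5% ± 3.73 in IR control libraries (SD, n = 3 each).

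Among recycling genes RAB11B and RAB4B fell, and their paralogues RAB11A and RAB4A were not called. RAB11A, of the slow recycling endosome, had 8.75, 8.78 and 9.21 CPM in IR+Oligonol libraries, against 4.77, 7.54 and 7.94 CPM in IR control libraries, a log2 fold change of 0.40 (SE 0.22) that did not pass (adjusted p = 0.164). RAB11B, its neuron-rich paralogue, had 3.34, 5.48 and 4.41 CPM against 9.86, 7.43 and 6.40 CPM and fell by 0.84 (SE 0.25, adjusted p = 0.0249). The fast-recycling gene RAB4B fell by 1.06 (SE 0.29, adjusted p = 0.0211), whereas RAB4A had a log2 fold change of 0.69 (SE 0.30, adjusted p = 0.091). RAB35, which sends receptors from endosomes back to the surface and acts in neurite outgrowth, fell by 0.89 (SE 0.24, adjusted p = 0.018). RAB15, a Rab of early and recycling endosomes, fell by 1.01 (SE 0.24, adjusted p = 0.0131).

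Secretory members gave 2 higher, 2 lower and 6 not called among 10 tested (median log2 fold change 0.29). That was 20% in each direction, where 26.0% of all tested genes rose and 23.0% fell. RAB8B, which with RAB8A carries vesicles from the Golgi to the plasma membrane and the primary cilium, had 1.56, 1.65 and 1.51 CPM in IR+Oligonol libraries, against 0.539, 0.577 and 0.269 CPM in IR control libraries. The groups were far apart, and RAB8B rose by 1.72 (SE 0.30, adjusted p = 0.00769), on about 10.5 to 75.8 reads per library. RAB3C, a vesicle Rab of neurons and endocrine cells, had 3.98, 2.83 and 3.31 CPM against 0.741, 1.63 and 1.41 CPM and rose by 1.44 (SE 0.30, adjusted p = 0.0099). RAB3A, the main synaptic vesicle Rab, had 1.35, 2.02 and 1.87 CPM against 2.63, 2.93 and 2.54 CPM. It fell by 0.62 (SE 0.21, adjusted p = 0.0393), the smallest change among the called members.

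RAB26, placed on synaptic vesicles and secretory granules, had 1.88, 2.71 and 2.12 CPM in IR+Oligonol libraries, against 3.67, 3.84 and 4.91 CPM in IR control libraries. It fell by 0.89 (SE 0.21, adjusted p = 0.0133), with no overlap. RAB10, which in mouse adipocytes brings glucose transporter vesicles to the surface in response to insulin, had 6.84, 4.60 and 5.34 CPM against 5.41, 4.25 and 4.35 CPM. Those groups overlapped, and the log2 fold change of 0.26 (SE 0.21) did not pass (adjusted p = 0.325). RAB8A had 3.90, 4.17 and 4.23 CPM against 4.23, 3.57 and 5.68 CPM (log2 fold change -0.13, SE 0.20, adjusted p = 0.61). RAB27A, of granule docking, had 0.79, 0.414 and 0.646 CPM against 0.385, 0.382 and 0.464 CPM (log2 fold change 0.62, SE 0.33, adjusted p = 0.149). The vesicle Rabs RAB3B and RAB3D and the junction Rab RAB13 were not called, at log2 fold changes of 0.77, -0.08 and 0.31. RAB27B, the paralogue of RAB27A, was too low for testing, at 0.306, 0.103 and 0.246 CPM against 0.399, 0.115 and 0.225 CPM.

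Among the remaining 8 tested members 3 rose and 1 fell (37.5% and 12.5%, against 26.0% and 23.0% of all tested genes). RAB28, a Rab of the cilium and photoreceptor outer segment, had 3.86, 2.20 and 4.34 CPM in IR+Oligonol libraries, against 1.61, 0.712 and 0.641 CPM in IR control libraries. Its log2 fold change of 1.81 (SE 0.40, adjusted p = 0.0122) was the largest rise of the family. RAB40C, which joins a ubiquitin ligase through its SOCS box, had 1.56, 2.63 and 1.79 CPM against 4.66, 4.51 and 5.18 CPM and fell by 1.28 (SE 0.23, adjusted p = 0.00799). RAB12, a substrate of the Parkinson's disease kinase LRRK2, had 2.02, 1.62 and 1.59 CPM against 1.10, 0.824 and 1.08 CPM and rose by 0.81 (SE 0.22, adjusted p = 0.0194). Neither gene's groups overlapped. RAB23, a negative regulator of Hedgehog signalling, rose by 1.40 (SE 0.40, adjusted p = 0.0224). RAB29, RAB32, RAB24 and RAB40B were not called, with log2 fold changes of -0.60 to 0.21.

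The 18 members that were not tested reached at most 0.611 CPM in any library. RAB1C, a pseudogene of the RAB1 genes, was listed at 0 throughout, and RAB6D was listed at 0 in the 3 IR control libraries. RAB6C, an intronless copy of RAB6A, shares nearly all its sequence, so estimated counts may be split between them. RAB4B overlaps the read-through genes MIA-RAB4B and RAB4B-EGLN2, RAB43 overlaps ISY1-RAB43, and RAB4A, RAB5C, RAB11B and RAB33B each have an antisense gene. No source names a strand setting for the counting, so the values of these genes are uncertain to that extent.

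**Figure D2:**
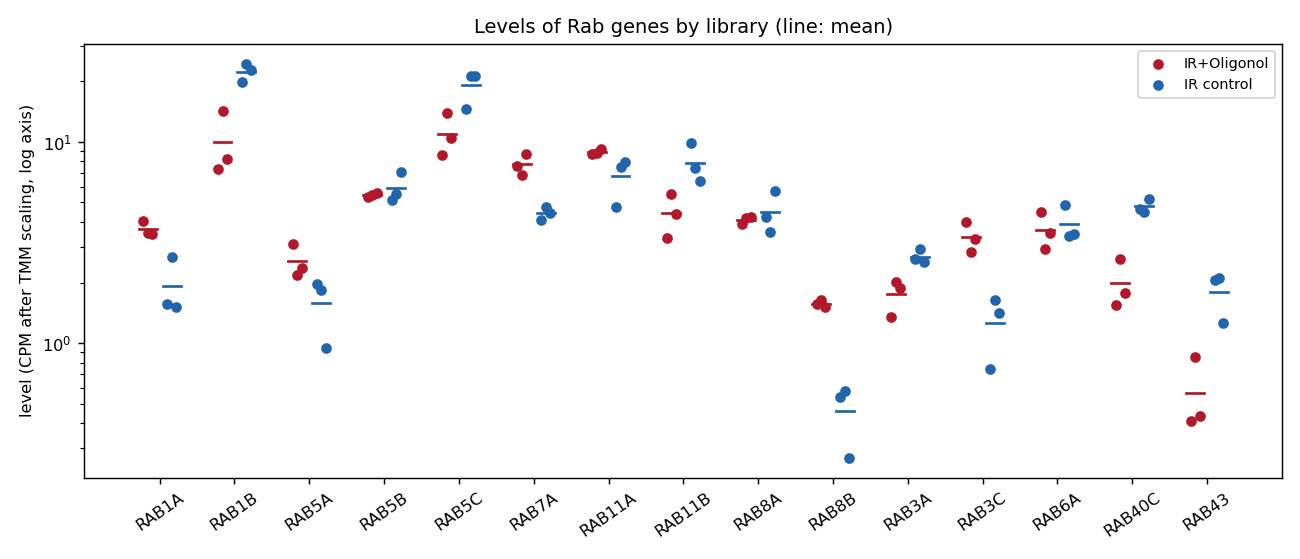
Levels of 15 Rab genes in each library, in CPM after TMM scaling on a log axis, with IR+Oligonol libraries in red and IR control libraries in blue; lines are group means of 3 libraries. RAB1B and RAB5C are lower and RAB1A, RAB7A, RAB3C and RAB8B higher in every IR+Oligonol library on this scaling, while RAB5B, RAB8A and RAB6A overlap.

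All 64 members added up to 138.3, 140.7 and 134.6 CPM in IR+Oligonol libraries, against 140.9, 154.7 and 151.3 CPM in IR control libraries (137.8 ± 3.09 against 149 ± 7.18, SD, n = 3 each, exact 2-sided permutation p = 0.1, the smallest 3 against 3 libraries allow). Within that sum the make-up shifted: RAB1B held 7.20% ± 2.59 with Oligonol and 15.0% ± 0.877 in controls, and RAB7A 5.62% ± 0.805 and 2.97% ± 0.0781. By class, secretory members held 18.6% ± 0.669 with Oligonol and 16.1% ± 1.21 in controls (exact permutation p = 0.1). Endosomal members held 41.7% ± 1.98 and 43.2% ± 1.78 (exact permutation p = 0.4), and Golgi and ER members 29.2% ± 2.12 and 30.0% ± 1.40 (exact permutation p = 0.7). These sums compare genes, which the deposited values allow because they behave as abundances per transcript length.

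A ratio of 2 genes within a library does not depend on the scaling between libraries. In 15 pairs of close paralogues with both genes tested, the groups did not overlap in 11 (exact 2-sided permutation p = 0.1 each, the smallest possible, 0.136 after adjustment over the 15 pairs). Levels of single genes did not overlap between the groups in 10380 of the 16574 tested genes (62.6%) and in 31 of the 46 tested Rab genes, so a lack of overlap was common in this comparison. Those are scaled levels and not ratios, and the share among ratios of other gene pairs was not computed. The pairs are also not separate, because the RAB3 pairs share RAB3A and the RAB5 pairs share their genes. RAB1A held 35.4, 19.8 and 29.7% of the RAB1A and RAB1B level in IR+Oligonol libraries, against 7.32, 9.91 and 6.24% in IR control libraries. The share was higher in 3 of 3 IR+Oligonol libraries, and the log2 ratio differed by 2.19, the widest gap of all pairs. RAB1A and RAB1B were also the only pair whose members were called in opposite directions.

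RAB4A held 68.7, 36.7 and 65.2% of its pair with RAB4B, against 31.2, 31.3 and 21.4% in controls (log2 difference 1.77). RAB5A held 26.4, 13.6 and 18.5% of its pair with RAB5C, against 11.8, 7.90 and 4.22% (log2 difference 1.54). RAB11A held 72.3, 61.6 and 67.6% of its pair with RAB11B, against 32.6, 50.4 and 55.4% (log2 difference 1.27). In each of these pairs IR+Oligonol library 2 was the nearest to the controls. RAB8A held 71.4, 71.7 and 73.7% of its pair with RAB8B, against 88.7, 86.1 and 95.5% (log2 difference -1.82). RAB3A held 71.3, 79.2 and 79.4% of its pair with RAB3B, against 89.8, 90.2 and 90.5% (log2 difference -1.32). The 4 pairs with overlapping groups were RAB6A with RAB6B, RAB22A with RAB31, RAB33A with RAB33B and RAB39A with RAB39B.

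**Figure D3:**
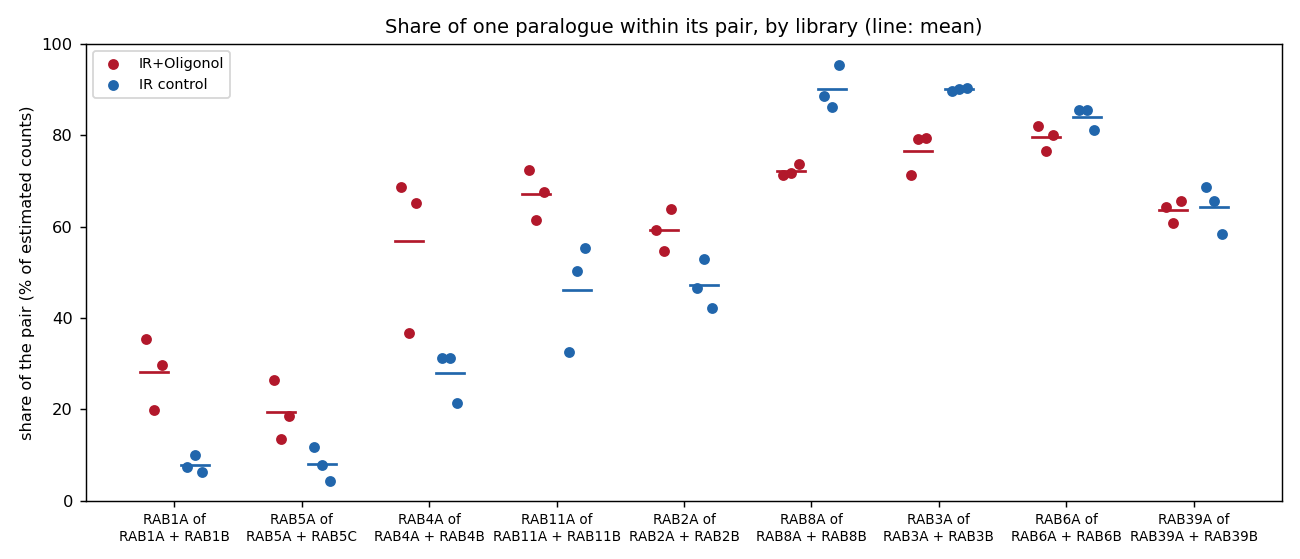
Share of the first-named gene in the summed estimated counts of its pair, in percent, for 9 pairs of Rab paralogues; points are libraries, lines are means of 3, IR+Oligonol in red and IR control in blue. RAB1A, RAB5A, RAB4A, RAB11A and RAB2A take a larger share in every IR+Oligonol library, RAB8A and RAB3A a smaller one, and RAB6A and RAB39A overlap.

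What the called members shared was base composition. The 12 genes that rose had a transcript GC content of 36.2 to 49.4% (median 41.6%), and the 11 that fell had 54.8 to 64.1% (median 59.9%), so the ranges did not meet. Of 19 tested members under 45% GC, 9 rose and 0 fell (edgeR, adjusted p under 0.05), where 65.7% of tested protein-coding genes in that range rose and 0.311% fell. Of 15 members at 55% GC or more, 0 rose and 10 fell, where 0.537% of protein-coding genes rose and 70.1% fell. Between these limits 3 of 12 members rose and 1 fell, where 20.3% of protein-coding genes rose and 8.2% fell. Over the 46 members transcript GC and log2 fold change had a Spearman correlation of -0.87, and over 11719 tested protein-coding genes it was -0.85. These are descriptions over genes that share the same 6 libraries.

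A like relation was seen with the coding sequence. The Spearman correlation with the GC content of the third codon base was -0.81, and the medians of that content were 42.8% in members that rose and 77.1% in members that fell. With the GC content of the RefSeq promoter sequence, from 250 bases before to 50 after the start and present for 37 members, it was -0.29. The medians there were 65.0% in 9 members that rose and 69.5% in 8 that fell. Members that rose also spanned more of the genome, and the correlation with genomic span was 0.60. Among the 15 pairs the member with less GC gained share in 12, and the Spearman correlation of the ratio difference with the difference in GC was -0.89.

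**Figure D4:**
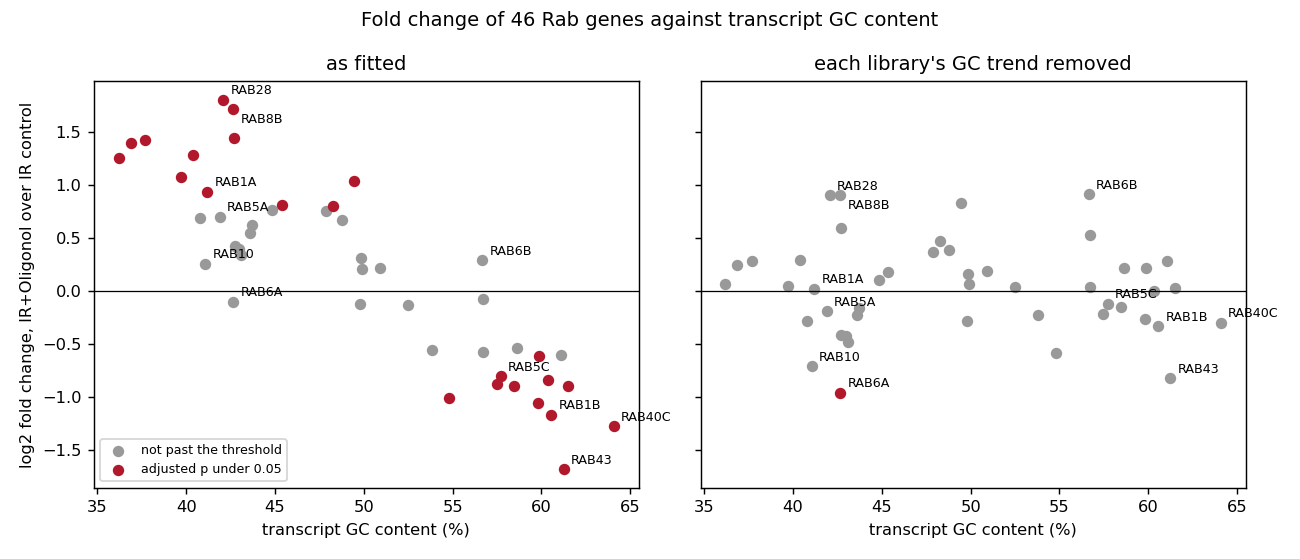
Log2 fold change of IR+Oligonol over IR control against transcript GC content in percent for 46 Rab genes, as fitted (left) and with each library's GC trend removed (right); red points have an adjusted p under 0.05 (edgeR). On the left the points fall along a line from RAB28 and RAB8B at low GC to RAB43 and RAB40C at high GC (Spearman correlation -0.87); on the right it is -0.12 and RAB6A is the only red point.

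When each library's trend of level with GC content was removed, 0 members rose and 1 fell, where 2.89% of all tested genes rose and 2.56% fell (edgeR, adjusted p under 0.05; 11 members had an unadjusted p under 0.05). The removal takes out any true change that follows GC content together with a technical one, and these cannot be told apart here. The median log2 fold change of the members became 0.04. By class the medians were 0.13 for secretory, -0.13 for endosomal and -0.10 for Golgi and ER members. Of the 23 called members 20 kept their direction and none kept its call. RAB28 and RAB8B had the largest remaining log2 fold changes of the called members, at 0.90 (adjusted p = 0.171) and 0.91 (adjusted p = 0.0875), against 1.81 and 1.72 before the removal. RAB22A moved least, at 0.83 (adjusted p = 0.108) against 1.04, while RAB1A stood at 0.02 and RAB11B at 0.01.

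RAB6A was the member called lower in that fit, with a log2 fold change of -0.96 (adjusted p = 0.0418). Its transcripts have 42.7% GC, and genes of that content mostly rose, whereas RAB6A was not called before the trend was removed. RAB10, at 41.1% GC, was not called either and stood at -0.71 without the trend (adjusted p = 0.0538). The call of RAB6A was lost whichever library was left out, at adjusted p-values of 0.0616 to 0.17 and log2 fold changes of -1.11 to -0.78 (edgeR). Its neuron-enriched paralogue RAB6B, at 56.7% GC, stood at 0.91 (adjusted p = 0.0782). The RAB6A to RAB6B log2 ratio without the trend differed by -1.84, and the groups did not overlap. Groups also stayed apart for RAB1A with RAB1B (0.37), RAB2A with RAB2B (0.50) and RAB8A with RAB8B (-0.81), 4 of 15 pairs in all (exact permutation p = 0.1 each, 0.375 after adjustment over the pairs). The share among other gene pairs without the trend was not computed, so this count has no background to be read against.

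The regulators and effectors of Rab proteins also held calls in both directions. Of 164 listed genes 148 were tested, and 48 rose and 39 fell (32.4% and 26.4%, against 26.0% and 23.0% of all tested genes). Among tested protein-coding genes 27.1% rose and 27.5% fell, so the share that fell was near that background. Without 1 library the 87 calls became 57, 37 and 11 (IR control libraries 1, 2 and 3) or 30, 90 and 26 (IR+Oligonol libraries 1, 2 and 3). Among the 14 genes of GDP dissociation, prenylation and membrane delivery 5 rose and 4 fell (35.7% and 28.6%, against 26.0% and 23.0% of all tested genes). CHM, the escort protein that presents Rabs for prenylation, had 2.96, 1.96 and 2.73 CPM in IR+Oligonol libraries, against 0.904, 0.521 and 0.42 CPM in IR control libraries and rose by 2.06 (SE 0.32, adjusted p = 0.00686). RABGGTA, the alpha subunit of the prenylating enzyme, had 1.94, 2.88 and 1.99 CPM against 3.98, 4.21 and 4.37 CPM and fell by 0.89 (SE 0.20, adjusted p = 0.0121). Its partner RABGGTB, the beta subunit, rose by 1.59 (SE 0.26, adjusted p = 0.00722). RABAC1, a membrane protein that binds prenylated Rabs, had 8.50, 20.1 and 11.0 CPM against 29.2, 37.2 and 35.4 CPM and fell by 1.36 (SE 0.34, adjusted p = 0.0148).

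GDI2, a GDP dissociation inhibitor, rose by 0.73 (SE 0.25, adjusted p = 0.0419). YIPF5, a Golgi membrane protein of the Rab-binding YIP family, had 2.54, 2.07 and 2.53 CPM in IR+Oligonol libraries, against 0.725, 0.839 and 0.656 CPM in IR control libraries, and rose by 1.70 (SE 0.22, adjusted p = 0.00601).

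Of 45 tested exchange factors 15 rose and 9 fell (33.3% and 20%, against 26.0% and 23.0% of all tested genes). DENND6A, which activates RAB14, had 2.15, 1.91 and 3.11 CPM in IR+Oligonol libraries, against 0.601, 0.529 and 0.471 CPM in IR control libraries, and rose by 2.17 (SE 0.27, adjusted p = 0.00601). DENND4C, which activates RAB10, had 1.98, 1.40 and 2.31 CPM against 0.499, 0.507 and 0.40 CPM and rose by 2.01 (SE 0.28, adjusted p = 0.0062). All IR+Oligonol libraries were above all controls for both. MON1A, part of the RAB7 exchange complex, fell by 1.25 (SE 0.23, adjusted p = 0.00833), and HPS1, part of the RAB32 and RAB38 exchange complex, fell by 0.92 (SE 0.18, adjusted p = 0.00927).

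Among 35 tested GTPase-activating proteins 11 rose and 11 fell (31.4% each, against 26.0% and 23.0% of all tested genes). RABGAP1 had 6.09, 3.88 and 5.12 CPM in IR+Oligonol libraries, against 1.22, 2.12 and 1.30 CPM in IR control libraries, and rose by 1.70 (SE 0.27, adjusted p = 0.00703). Its relative RABGAP1L rose by 1.86 (SE 0.28, adjusted p = 0.00655). TBC1D10A fell by 1.35 (SE 0.25, adjusted p = 0.00821) and TBC1D9B by 0.99 (SE 0.18, adjusted p = 0.00844). TBC1D4, the insulin-signalling substrate of AKT that restrains glucose transporter vesicles, had 0.512, 0.62 and 0.636 CPM against 0.551, 0.462 and 0.336 CPM. These overlapped, with a log2 fold change of 0.39 (SE 0.29, adjusted p = 0.356).

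Of 49 tested genes on the effector list 15 rose and 13 fell (30.6% and 26.5%, against 26.0% and 23.0% of all tested genes). EXOC6B, an exocyst subunit that binds secretory Rabs, rose by 1.15 (SE 0.20, adjusted p = 0.00759), and DCX, a microtubule-binding protein of young neurons on this list, by 1.25 (SE 0.16, adjusted p = 0.00606). GORASP1, a Golgi stacking protein, fell by 1.17 (SE 0.17, adjusted p = 0.00629), and RABEP2, a RAB5 effector, by 1.22 (SE 0.23, adjusted p = 0.00833). Genes around LRRK2, the kinase that phosphorylates several Rabs, numbered 5 tested, of which 2 rose and 2 fell. So few genes cannot be told from the shares of all tested genes. SPAG9 and MAPK8IP3, related motor adaptors that bind phosphorylated Rabs, went opposite ways. SPAG9 had 10.1, 10.2 and 9.34 CPM against 3.64, 4.48 and 2.98 CPM (log2 fold change 1.43, SE 0.20, adjusted p = 0.0062). MAPK8IP3 had 6.23, 8.86 and 7.02 CPM against 15.7, 15.0 and 15.4 CPM (log2 fold change -1.06, SE 0.20, adjusted p = 0.00844). VPS35, a retromer subunit mutated in familial Parkinson's disease, rose by 1.73 (SE 0.29, adjusted p = 0.00746), and PPM1M, a phosphatase of the same family as the Rab phosphatase PPM1H, fell by 0.88 (SE 0.23, adjusted p = 0.0181). LRRK2 itself was too low for testing, at 0.289, 0.238 and 0.329 CPM in IR+Oligonol and 0.0894, 0.115 and 0.0795 CPM in IR control libraries.

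With the GC trend removed 4 of the 148 genes were called, all higher, a count near the background of that fit, in which 2.89% of all tested genes rose and 2.56% fell. They were DENND6A at 1.16 (adjusted p = 0.0466), DENND4C at 1.01 (adjusted p = 0.0421), RABGAP1 at 0.93 (adjusted p = 0.0466) and YIPF5 at 0.89 (adjusted p = 0.0325). These 4 have 39.9 to 43.7% GC. Leaving out 1 library as well left 0 to 2 of the 148 called in any of the 6 fits (edgeR).

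**Figure D5:**
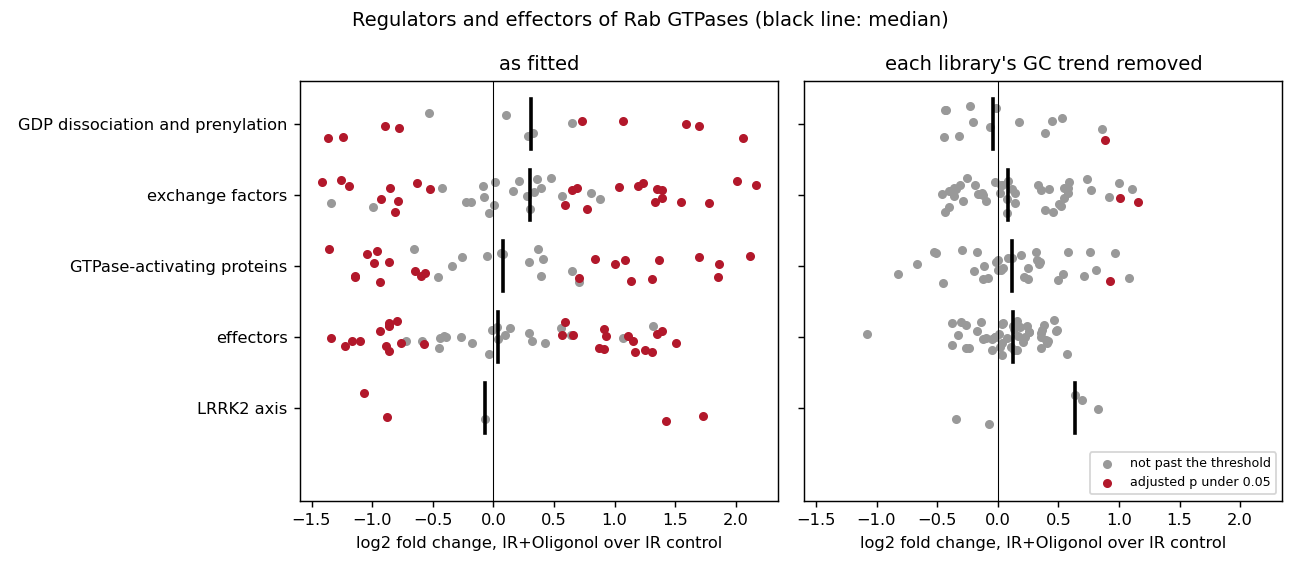
Log2 fold change of IR+Oligonol over IR control for tested regulators and effectors of Rab proteins by list, as fitted (left) and with each library's GC trend removed (right); red points have an adjusted p under 0.05 (edgeR) and black lines are list medians. On the left each list has red points on both sides of 0 (TMM scaling); on the right 4 points remain red, all above 0.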

How the data were processed

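Total RNA libraries were prepared with a stranded total RNA kit and sequenced from both ends at 100 nt (labels' protocols). GRCh38.p13 is the build and kallisto 0.46.1, FastQC and edgeR are the tools listed in the submitters' processing notes, without role or order. The authors deposited, per gene and library, an estimated count and a scaled signal. In each library this deposited signal equalled the estimated count multiplied by a constant, so only the estimated counts were used. They were not whole numbers and behaved as abundances divided by transcript length: in low genes with 1 transcript of 500 to 1500 nt, 68.6 to 71.6% of values lay within 0.05 of whole reads. That share is not independent, because the scale was chosen to make reads whole. 1 read of a 1000 nt transcript was then worth 0.419 to 0.546 estimated counts in IR+Oligonol and 0.312 to 0.318 in IR control libraries. Read numbers given for members are rough for that reason, and counting noise is not that of reads.

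Estimated counts were rounded, filtered by filterByExpr, TMM-scaled and fitted in edgeR 4.0.16 (R 4.3.3) by robust quasi-likelihood with group as the only term, with Benjamini-Hochberg adjustment over 16574 genes and a threshold of 0.05. SE is implied by the test. The code was tested on simulated data with 200 changed genes. Transcript GC (median over transcripts) and coding sequences came from GENCODE 29, which matched 58254 of 61860 identifiers and all 64 members, and promoters from RefSeq. To remove the GC trend, log2 CPM (prior count 2) was fitted per library on GC by a natural spline with 5 degrees of freedom over protein-coding genes, and the fit became an offset for the 16200 tested genes with a GC value. Log2 ratios of paralogues used a prior of 0.5 counts, with exact 2-sided permutation tests. Values in every library are given for the 3 tested members of each class with the smallest p, for pairs called in opposite directions, and for a fixed set of widely studied members, and regulators are named by the smallest p in each direction of a list. LRRK2, TBC1D4, GDI2 and RABGGTB were named after their values were seen. The members, classes and lists were chosen with earlier results of these data known. Alternatives were scaling by RLE, by upper quartile or by library totals, the tools DESeq2 1.42.0 and limma-voom (limma 3.58.1), other filters, protein-coding genes only, the replicate number as a block and each library left out. Some genes of the lists are counted but not reported here by name.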

Additional observations from a re-analysis of the deposited data

How the results depend on the processing

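Where tested, called members kept their direction in RLE and upper-quartile scaling, DESeq2, limma-voom, other filters and the replicate block, and 20 of 23 did so without the GC trend. Without a filter 7 members were higher and 3 lower, and 50 regulators and effectors were called. Over all genes that fit called 2964 higher and 1603 lower of 42070. By library totals 34 members were higher and 0 lower, where 11293 of all 16574 tested genes were higher and 37 lower. Without the GC trend the counts were 0 and 1, with 4 regulators and effectors called and 4 of 15 pairs not overlapping. Leaving out each library, with or without the trend, gave 0 to 8 members higher, 0 to 13 lower, and 0 to 90 regulators and effectors called (6 to 27 members at an unadjusted p under 0.05). Over all genes these fits called 0 to 9492. For genes resting on few reads, such as RAB8B, RAB31 and RAB27A, depth limits the precision of the fold change.

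Same-numbered libraries of the groups deviated from their group means with correlations of 0.087, -0.00874 and -0.147. Libraries with different numbers gave -0.186 to 0.191. With 3 libraries per group these values cannot decide whether a replicate number marks a shared culture or batch. With the replicate block 12 members were higher and 10 lower, where 3560 of all 16574 tested genes were higher and 3470 lower. Block and GC removal together gave 0 higher and 0 lower, and 0 regulators and effectors, with 11 members at an unadjusted p under 0.05. Over all 16200 genes that fit called 0.

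Scaling by library totals moved genes upward together, with the median log2 fold change of all tested genes at 1.53 against 0.15 by TMM. Fold changes (log2) changed sign in several settings, and causes beyond that shared shift were not tested. With the GC trend removed they were RAB10 -0.71, RAB11A -0.42, RAB11B 0.0056, RAB24 0.28, RAB26 0.025, RAB27A -0.16, RAB2B -0.48, RAB36 0.042, RAB39A -0.41, RAB39B -0.23, RAB3A 0.22, RAB3D 0.53, RAB40B 0.22, RAB4A -0.28, RAB5A -0.19 and RAB8A 0.041, and the log2 ratio differences were RAB3A to RAB3B 0.20, RAB4A to RAB4B -0.029, RAB5A to RAB5C -0.055, RAB5B to RAB5C -0.16 and RAB11A to RAB11B -0.42. With the replicate block added they were RAB10 -0.70, RAB11A -0.39, RAB11B 0.027, RAB24 0.29, RAB26 0.034, RAB27A -0.18, RAB2B -0.46, RAB36 0.040, RAB39A -0.38, RAB39B -0.22, RAB3A 0.22, RAB3D 0.53, RAB40B 0.21, RAB4A -0.29, RAB5A -0.16 and RAB8A 0.055. By library totals the members stood at RAB11B 0.46, RAB15 0.35, RAB1B 0.15, RAB24 0.72, RAB26 0.48, RAB32 0.86, RAB33A 0.47, RAB35 0.48, RAB36 0.79, RAB3A 0.73, RAB3D 1.28, RAB40B 0.79, RAB40C 0.065, RAB4B 0.25, RAB5B 1.28, RAB5C 0.56, RAB6A 1.30 and RAB8A 1.27, and regulators and effectors at RABGGTA 0.46, HPS1 0.43, MON1A 0.095, TBC1D10A 0.031, TBC1D9B 0.38, GORASP1 0.19, RABEP2 0.15, MAPK8IP3 0.28 and PPM1M 0.48. With at least 10 counts in every library they were RAB3D 0.17, RAB5B 0.13, RAB6A 0.16 and RAB8A 0.12, and by upper-quartile scaling RAB3D 0.011. Over the fits that left out 1 library, with or without the trend, the ranges were RAB10 -0.85 to 0.30, RAB11A -0.64 to 0.44, RAB11B -1.22 to 0.21, RAB18 -0.11 to 1.63, RAB1A -0.12 to 1.17, RAB21 -0.13 to 1.28, RAB24 -1.02 to 0.37, RAB26 -1.24 to 0.14, RAB27A -0.31 to 0.64, RAB29 -0.15 to 0.24, RAB2A -0.082 to 1.06, RAB2B -0.64 to 0.46, RAB33B -0.20 to 0.94, RAB36 -0.78 to 0.13, RAB39A -0.63 to 0.56, RAB39B -0.34 to 0.60, RAB3A -0.92 to 0.28, RAB3B -0.032 to 0.82, RAB3D -0.35 to 0.59, RAB40B -0.77 to 0.40, RAB4A -0.42 to 0.74, RAB5A -0.41 to 0.79 and RAB8A -0.37 to 0.17.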
